A study of Mus musculus with 12 samples.

Results

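The promoters described here belong to long intergenic non-coding RNA (lincRNA) genes, read in DNase-seq peak lists from 12 mouse libraries that follow haematopoietic progenitors into the early T cell stages. A promoter was a member when its gene had the type lincRNA in GENCODE M21, lay on chromosomes 1 to 19 or X of mm10, and started more than 5 kb from every protein-coding start site. This left 4595 of the 5305 lincRNA start sites, among 53843 gene start sites in all, of which 21755 were protein-coding. A promoter was called open in a library when the midpoint of at least 1 peak (a DNase I hypersensitive site, DHS) lay within 1 kb of the start site. Each peak carried a whole-number score whose meaning is not given in the sources used here, so only its rank within its own list was used. The score percentile of a promoter runs from 0, for no peak within 1 kb, to 100, for the highest score of that library.

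LSK cells (n = 3 libraries) were freshly sorted stem and progenitor cells from lineage-depleted marrow with high SCA-1 and c-KIT. DN1 (KIT++CD44+CD25-, n = 2), DN2a (KIT++CD44+CD25+, n = 2) and DN2b (KIT+CD44loCD25+, n = 2) cells were flow sorted after LSK cells had been grown on a high concentration of immobilized Notch ligand Delta1. IgG cells (n = 3) descended from LSK cells grown on human IgG1 in place of the ligand, and all cultures held SCF, FLT-3 ligand, IL-6 and IL-11 on retronectin. According to the methods IL-7 was given in the DN2 cultures and not in the DN1 cultures, so stage and IL-7 cannot be told apart between DN1 and DN2. The methods give C57BL/6J mice, and the labels give no age, sex or strain. The DN stages were harvested in sequence from cultures of the same isolates, so libraries of different stages may come from 1 isolate, and which ones is not labelled. The IgG group is a mixed culture with no stage gate given for it.

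LincRNAs are RNA polymerase II transcripts that are spliced and capped like messenger RNAs but encode no known protein. They are typically less abundant and more restricted to particular cell types than messenger RNAs, and many are transcribed from or next to enhancers, so an open lincRNA start site can mark a promoter, an enhancer or both. A smaller group is made in nearly all cells, among them Malat1 and Neat1 of the nuclear speckles and paraspeckles, and the hosts of small nucleolar RNAs. Xist is made from the inactive X chromosome of female cells and silences it. In blood cells, lincRNAs such as Morrbid and the miR-155 host transcript take part in the survival and activation of immune cells.

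The lists ranged from 32952 peaks (IgG replicate 2) to 111582 peaks (DN2b replicate 2), and DN1 replicate 1 with 96436 peaks was the second longest. The shares, sets and limma comparisons were therefore also computed with every list shortened to its 32952 highest-scoring peaks. Percentiles were then ranked again within the shortened list. Peak distances, sequence composition and motifs are given for the lists as deposited only. Read totals were not part of the lists, the depth behind them is unknown, and a promoter with no peak was below the peak caller's threshold and not shown to be closed. Promoters of 8 early T cell markers (Il2ra, Cd3e, Tcf7, Gata3, Bcl11b, Notch1, Rag1 and Ptcra) checked the labels. Of these 1 was open in each LSK library, 3 in each DN1 library, 5 in each DN2a library, 5 and 6 in the DN2b libraries and 0 in every IgG library, and at equal list lengths 0, 1, 4 and 5, 5, and 0. Of 6 LSK markers (Kit, Ly6a, Cd34, Flt3, Meis1 and Hoxa9) 4 were open in each LSK, DN1 and DN2b library, 3 to 4 in the DN2a libraries and 2 to 3 in the IgG libraries. With lists of equal length 4 were open in each LSK and DN1 library and 3 in each DN2a and DN2b library. Of 6 myeloid markers (Csf1r, Mpo, Elane, Cebpa, Cebpe and Csf3r) 3 to 4 were open in the IgG libraries and 1 to 2 elsewhere. For the lists of 4 mast cell and basophil, 4 B, 4 erythroid and 4 NK markers, 0 to 2, 0 to 1, 0 to 3 and 0 to 3 promoters were open in a library.

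The peaks behind the main patterns are printed first. Each is the highest-scoring 150-bp peak within 1 kb of the start site over all libraries, read 5′ to 3′ on the strand of the gene from GRCm38.p6, which has the chromosomes of mm10. Capitals mark matches, on either strand, to short core motifs. The core of RBPJ, the DNA-binding partner of Notch, was taken as TGGGAA. That of the RUNX factors of blood and T cell development was TGTGGT. ETS factors such as ETS1 were represented by CGGAAG. For the GATA factors of progenitors and T cells the letters were AGATAA. For TCF1 and LEF1, the T cell factors of the HMG box family, they were TCAAAG. The insulator protein CTCF was searched as AGGGGGC. The TATA box, a core promoter element, was searched as TATAAA. A match is a run of letters and no measure of binding. Gm32865 (chr16:87128297-87128446, minus strand) was open in LSK cells only, and its peak covered the first exon with 1 GATA match.
Gm32865: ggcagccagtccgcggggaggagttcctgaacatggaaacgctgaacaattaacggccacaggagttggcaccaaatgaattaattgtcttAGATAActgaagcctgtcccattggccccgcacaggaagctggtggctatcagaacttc
Gm48607 (chr12:16185557-16185706, plus strand) was open in LSK and DN1 cells only, and its peak, with 1 GATA match, lay 142 bp upstream of the start.
Gm48607: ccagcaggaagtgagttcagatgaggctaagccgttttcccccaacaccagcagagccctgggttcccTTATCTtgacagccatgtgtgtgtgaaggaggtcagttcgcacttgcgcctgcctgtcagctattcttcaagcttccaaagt
2310031A07Rik (chr11:46448157-46448306, minus strand) and Gm34574 (chr10:99229057-99229206, minus strand) were open in every Delta1-cultured library and in no other. The peak of 2310031A07Rik held a TATA box match and a RUNX match, and that of Gm34574 held none of the motifs.
2310031A07Rik: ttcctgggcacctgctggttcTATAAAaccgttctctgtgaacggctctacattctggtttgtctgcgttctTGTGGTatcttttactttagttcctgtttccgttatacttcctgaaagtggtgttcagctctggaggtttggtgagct
Gm34574: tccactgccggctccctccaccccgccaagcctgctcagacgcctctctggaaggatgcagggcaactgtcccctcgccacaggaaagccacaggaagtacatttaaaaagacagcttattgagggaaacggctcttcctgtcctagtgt
Gm6093 (chr13:33569437-33569586, minus strand) and 2810403G07Rik (chr13:112417977-112418126, minus strand) were open in all DN2 libraries and in no other, with a TCF1 and LEF1 match in the latter.
Gm6093: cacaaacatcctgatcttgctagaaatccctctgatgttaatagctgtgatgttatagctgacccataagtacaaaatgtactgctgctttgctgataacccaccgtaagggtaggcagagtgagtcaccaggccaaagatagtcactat
2810403G07Rik: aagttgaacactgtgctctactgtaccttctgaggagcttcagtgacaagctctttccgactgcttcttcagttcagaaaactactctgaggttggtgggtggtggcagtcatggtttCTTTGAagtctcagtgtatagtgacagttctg
Gm16084 (chr12:107160217-107160366, minus strand) and Gm49014 (chr15:63255857-63256006, plus strand) reached high percentiles in DN2 cells. The last capitals of Gm49014 are a GATA match and a RUNX match that overlap.
Gm16084: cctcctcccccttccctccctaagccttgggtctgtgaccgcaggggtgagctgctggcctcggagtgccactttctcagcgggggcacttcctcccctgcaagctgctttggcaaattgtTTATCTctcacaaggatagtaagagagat
Gm49014: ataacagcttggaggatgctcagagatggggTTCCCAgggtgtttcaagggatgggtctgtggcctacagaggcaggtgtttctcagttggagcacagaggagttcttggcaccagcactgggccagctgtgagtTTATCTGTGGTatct
Gm40787 (chr10:121488777-121488926, plus strand) was open in IgG cells only, with 1 RBPJ core match.
Gm40787: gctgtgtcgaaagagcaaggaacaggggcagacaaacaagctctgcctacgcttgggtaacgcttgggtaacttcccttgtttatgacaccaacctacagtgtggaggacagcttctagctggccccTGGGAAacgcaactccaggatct
Gm14005 (chr2:128502817-128502966, minus strand), the Morrbid transcript, was open in DN2b cells only, with 1 RUNX match.
Gm14005: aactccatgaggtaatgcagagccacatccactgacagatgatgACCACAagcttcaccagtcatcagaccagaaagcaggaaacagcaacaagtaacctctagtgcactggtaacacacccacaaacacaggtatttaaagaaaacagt

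Promoter accessibility of lincRNA genes was far below that of protein-coding genes in every library. In LSK cells 11.1%, 11.4% and 12.9% of the 4595 lincRNA promoters were open, in DN1 cells 15.1% and 12.3%, in DN2a cells 11.6% and 9.92%, in DN2b cells 10.5% and 16.1%, and in IgG cells 6.96%, 6.49% and 7.07%. The IgG libraries were the lowest and did not overlap any other group, and the highest values came from the libraries with the longest lists. The group means were 11.8% ± 0.922 (SD, n = 3) for LSK, 13.7% ± 2.00 (SD, n = 2) for DN1, 10.8% ± 1.20 (SD, n = 2) for DN2a, 13.3% ± 3.99 (SD, n = 2) for DN2b and 6.84% ± 0.313 (SD, n = 3) for IgG. Over protein-coding promoters in the same lists the means were 51.5%, 52.4%, 49.4%, 53.9% and 42.8%.

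At equal list lengths the order changed. The mean lincRNA share was then 7.87% ± 0.424 for LSK, 6.97% ± 0.292 for DN1, 6.54% ± 0.169 for DN2a, 6.58% ± 0.292 for DN2b and 6.49% ± 0.142 for IgG cells, with the same numbers of libraries, beside 45.6%, 43.3%, 43.5%, 44.5% and 42.1% for protein-coding promoters. LSK was then the highest group, and DN2a, DN2b and IgG did not differ beyond the spread between their libraries. All LSK (7.44% to 8.29%) and DN1 libraries (6.77% and 7.18%) still lay above the IgG libraries (6.35% to 6.64%), while those of DN2a and DN2b overlapped them.

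**Figure D1:**
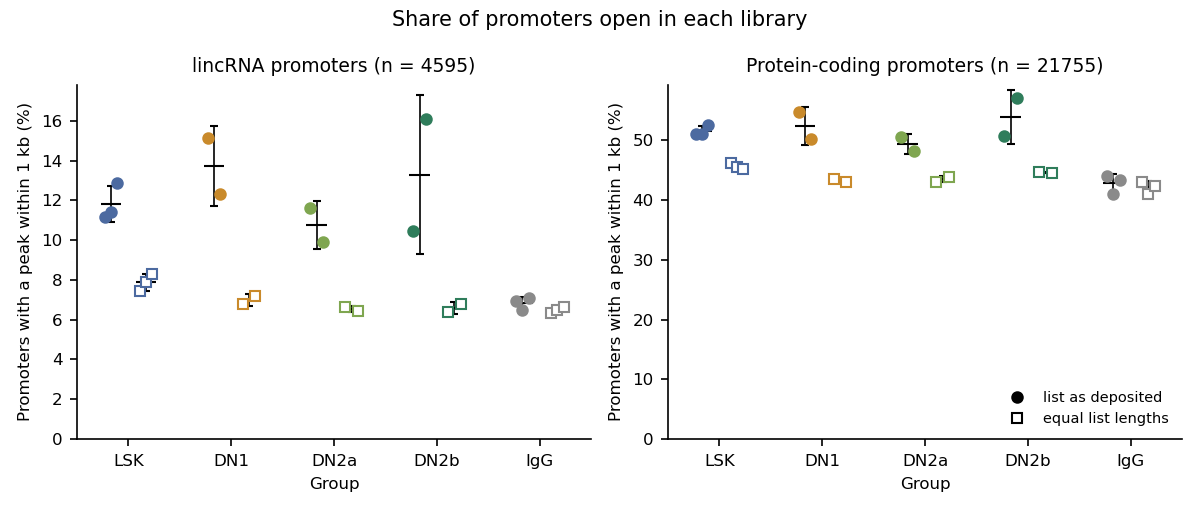
Share of promoters with a peak within 1 kb (%, vertical axis from 0) in each library by group, for lincRNA promoters (left) and protein-coding promoters (right). Filled circles are the lists as deposited, open squares the lists cut to equal lengths, and black lines the group mean with 1 SD. The lincRNA shares lie between 6.49% and 16.1% as deposited, and the differences between groups narrow at equal lengths.

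When a lincRNA promoter was open, its peak ranked in the middle of the list. The median percentile over open lincRNA promoters averaged 56.2 ± 1.74 for the 3 LSK libraries, 59.8 ± 0.598 for the 2 DN1, 58.7 ± 1.15 for the 2 DN2a, 59.9 ± 3.34 for the 2 DN2b and 52.7 ± 0.213 for the 3 IgG libraries (mean ± SD). Open protein-coding promoters averaged 85.6, 88.6, 85.9, 87.8 and 78.8 in the same order. The 710 lincRNA start sites within 5 kb of a protein-coding start, which are not members, were open in 35.5% (IgG) to 47.0% (DN2b) on group average. Antisense gene starts (2958) were open in 19.9% to 31.1%, and TEC starts (3210 genes still awaiting experimental proof) in 8.50% to 14.2%, close to the members.

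Accessibility of lincRNA promoters was also narrower across libraries than that of protein-coding promoters. Of the 4595 promoters 1071 (23.3%) were open in at least 1 library and 3524 in none. Of the 1071, 139 (13.0%) were open in all 12 libraries and 221 (20.6%) in a single library. Of 13606 protein-coding promoters open in at least 1 library, 7885 (58.0%) were open in all 12 and 876 (6.44%) in 1 alone. With equal lengths 647 lincRNA promoters were open in at least 1 library, 102 (15.8%) in a single library and 106 (16.4%) in all 12. Some members share a peak, since 106 of the open members have another gene start within 1 kb, and 1047 distinct peaks stood behind the 1071 promoters.

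**Figure D2:**
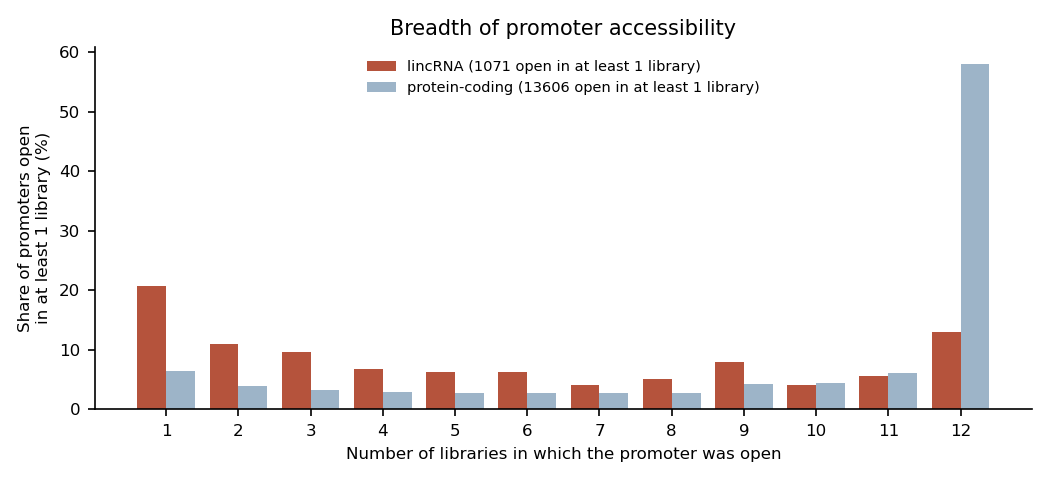
Share (%, vertical axis) of promoters open in at least 1 library by the number of libraries in which they were open (horizontal axis, 1 to 12), for 1071 lincRNA promoters (red) and 13606 protein-coding promoters (blue). In these lists as deposited, lincRNA promoters peak at a single library (20.6%) and protein-coding promoters at all 12 (58.0%).

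Libraries of a group resembled each other in which lincRNA promoters were open. With lists of equal length, 81.9% to 91.2% of the open lincRNA promoters of an LSK library were shared with another LSK library, 83.6% and 88.7% between the DN1 libraries, 85.3% and 88.5% between the DN2a libraries, 86.5% and 92.2% between the DN2b libraries and 74.8% to 81.5% among IgG libraries. Between DN2a and DN2b libraries the shares were 81.1% to 87.7%, overlapping those within the groups. LSK with DN1 (68.0% to 84.9%) and DN1 with DN2a libraries (75.2% to 84.4%) also overlapped within-group ranges. LSK with DN2a (60.6% to 78.3%) and DN1 with DN2b libraries (69.4% to 78.2%) overlapped that of IgG alone. The shares were 56.4% to 73.4% between LSK and DN2b libraries, 53.0% to 72.5% between LSK and IgG libraries, and 52.9% to 58.7% between DN2b and IgG libraries. As deposited they were 62.4% and 96.0% between the DN2b libraries and 59.3% to 96.3% between DN2a and DN2b libraries. Each range covers both directions of a pair, as a share of each library's open promoters.

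The question of which lincRNA genes mark a stage was addressed by promoters open in every library of a group and in no other library. There were 16 for LSK (0.189% of all 53843 gene start sites showed this pattern), 9 for DN1 (0.173%), 0 for DN2a (0.00557%), 15 for DN2b (0.31%) and 18 for IgG (0.212%). As a share of the 4595 members these are 0.348%, 0.196%, 0%, 0.326% and 0.392%, and among start sites open in at least 1 library the shares are 1.49%, 0.840%, 0%, 1.40% and 1.68% for lincRNA promoters beside 0.512%, 0.466%, 0.0150%, 0.838% and 0.572% for all start sites. With equal lengths there were 27, 4, 0, 7 and 31, which is 0.588%, 0.0871%, 0%, 0.152% and 0.675% of the members beside 0.344%, 0.0594%, 0.0167%, 0.158% and 0.429% of all start sites, and 7, 0, 0, 0 and 16 promoters were in the set both ways. The DN1 count was 55 without DN1 replicate 2, 21 without DN1 replicate 1 and 19 without DN2b replicate 2, the DN2b count was 102 without DN2b replicate 1, and the LSK count was 27 without DN1 replicate 1. The DN2a count was 11 without DN2a replicate 2, 5 without DN2a replicate 1, and 1 without either LSK replicate 3 or DN2b replicate 2.

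Gm32865 had the highest percentiles of the LSK-only promoters, at 90.2, 81.4 and 85.2 in the LSK libraries and 0 in the other 9. Gm32865 (ENSMUSG00000116979.1, chr16:87125036-87128439) lies 226 kb from N6amt1, the nearest protein-coding gene record. The next were 8030442B05Rik, at 75.5, 16.2 and 77.9, and Gm34829, at 30.2, 68.8 and 61.3, so their levels varied widely between LSK libraries. 8030442B05Rik lies 244 kb from Il2ra, which encodes the CD25 chain of the IL-2 receptor, and 156 kb from Pfkfb3. The LSK-only set also held 8430436N08Rik, whose nearest coding gene is Tox, 569 kb away. It stood at 27.3, 13.2 and 48.7 in the LSK libraries, and Tox encodes a nuclear factor of T cell development. The median percentiles of the 16 promoters ran from 12.6 to 85.2, and 7 of them kept the pattern at equal list lengths, Gm32865 among them.

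The IgG-only promoters held the highest value of the 1-group sets. Gm40787 stood at 95.6, 90.5 and 87.9 in the IgG libraries, Gm36435 at 81.7, 72.0 and 81.9, and Gm31718 at 79.2, 76.3 and 59.8, each with 0 in all other libraries. They lie 12.6 kb from Rassf3, 15.6 kb from Sc5d, an enzyme of cholesterol synthesis, and 37.6 kb from Tomm20, a subunit of the mitochondrial import receptor. Gm49723, 35.7 kb from the haematopoietic transcription factor gene Runx1, was open at 32.3, 26.2 and 61.4 in the IgG libraries. In lists of equal length 16 of the 18 kept the pattern. Gm31718 had no peak within 500 bp in any library. The myeloid marker promoters that were also more often open in IgG libraries move with this set, and their part in it was not tested.

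The DN1-only and DN2b-only promoters had lower percentiles. AC151280.3 stood at 47.2 and 56.9 in the DN1 libraries, Gm33843 at 43.6 and 53.4, and Gm47066 at 45.5 and 33.0. Gm33843 lies 21.3 kb from Btg1, an antiproliferative gene, and Gm47066 lies 137 kb from Ctnnb1, which encodes beta-catenin. In DN2b cells AC098707.2 stood at 38.1 and 88.9, Gm12606, 21.3 kb from the cell cycle inhibitor gene Cdkn2a, at 54.3 and 66.8, and 1700048O20Rik at 44.9 and 72.3. 1700048O20Rik shares its peak with Gm49343. No promoter of either set kept its pattern at equal list lengths. With a window of 500 bp, AC151280.3, Gm47066, AC098707.2, Gm12606 and 1700048O20Rik had no peak in any library.

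Across sets of groups, 15 lincRNA promoters were open in all 6 Delta1-cultured libraries and in none of the LSK or IgG libraries, beside 0.306% of all gene start sites. 7 were open in all 4 DN2 libraries alone (0.11%), 6 in all LSK and DN1 libraries alone (0.0631%) and 1, Gm39473, in all LSK and IgG libraries alone (0.0297%). At equal list lengths the counts were 7, 13, 5 and 3, or 0.152%, 0.283%, 0.109% and 0.0653% of members beside 0.162%, 0.193%, 0.0427% and 0.0799% of all start sites, and 2, 6, 0 and 0 promoters were in the set both ways. The Delta1 count was 26 without DN2a replicate 2, and the DN2 count was 11 without DN1 replicate 1. The LSK with DN1 count was 17 without DN1 replicate 2 and 11 without DN2b replicate 2, and the LSK with IgG count was 4 without DN1 replicate 1, 3 without LSK replicate 1 and 2 without LSK replicate 2.

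2310031A07Rik led the Delta1 set, at 84.0 and 79.3 in DN1, 83.2 and 83.4 in DN2a and 57.5 and 78.5 in DN2b libraries. The peak lies 983 bp upstream of its start, near the limit of the window. The start itself lies 7.69 kb from Havcr2, which encodes the inhibitory receptor TIM-3. Gm34574 stood at 75.8 and 79.3, 76.2 and 71.1, and 63.1 and 81.5 in the same order, 34.3 kb from Dusp6, a phosphatase of the ERK pathway. These are the 2 promoters that kept the pattern at equal list lengths. By median percentile Gm31479 (80.4) and Gm28942 (76.9) ranked above Gm34574 (76.0), and Gm34425 (61.4) ranked below it. In the DN1 libraries Gm31479, Gm28942 and Gm34425 stood at 75.8 and 49.5, 43.6 and 38.3, and 53.7 and 45.2. These values were lower than the 57.9 to 91.0 of the DN2 libraries, with overlap for Gm31479 alone. Gm31479 stood at 74.1 to 91.0 in the DN2 libraries, Gm28942 at 76.8 to 85.0 and Gm34425 at 57.9 to 87.1. The pattern depended on the window for some of these. Within 500 bp of the start 2310031A07Rik and Gm31479 had no peak in any library and Gm34425 had one in 1 library, and within 2.5 kb 2310031A07Rik was open in 9 libraries and Gm34425 in all 12. Gm34574 and Gm28942 were open in 6 libraries with each window.

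The DN2 set was led by Gm6093 and Gm47916, on opposite strands with overlapping 5′ ends, whose starts are 296 bp apart and share a peak. Both stood at 89.9 and 90.6 in DN2a and 91.9 and 92.05 in DN2b libraries, with Serpinb9g 84.5 kb from Gm6093 and 84.2 kb from Gm47916. 2810403G07Rik, 46.7 kb from Il6st, which encodes the gp130 chain of IL-6 family receptors, stood at 77.0 and 48.6 in DN2a and 83.5 and 82.4 in DN2b libraries. Gm11958, 27.9 kb from the gp130 ligand gene Lif, stood at 64.9 and 63.9, then 69.9 and 80.6. Gm35037 stood at 59.5 and 52.5, then 73.6 and 86.7. All of the DN2 set except 4930407G08Rik kept the pattern at equal list lengths. Within 500 bp 2810403G07Rik and Gm11958 had no peak in any library and Gm47916 had one in 2, and within 2.5 kb Gm35037 was open in 11 libraries. Gm6093 was open in 4 libraries with each window.

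Gm48607 led the promoters open in LSK and DN1 cells alone, at 88.9, 88.9 and 93.2 in LSK and 75.8 and 33.0 in DN1 libraries, and 0 in all DN2 and IgG libraries. Gm36670 stood at 52.9, 51.4 and 69.4 in LSK and 37.8 and 22.4 in DN1 libraries, and Gm4211 at 62.0, 44.6 and 56.4, then 16.1 and 7.76. In each of these the DN1 values lay below all LSK values. This order did not hold for the whole set, since Gm11415 and 1810063I02Rik had their highest value, 45.45, in a DN1 library. Within 500 bp Gm36670 was open in 0 libraries and Gm4211 in 1, while Gm48607 was open in 5 with each window. Gm39473, the promoter shared by LSK and IgG cells, stood at 33.1, 13.2 and 48.7 in LSK and 26.6, 48.3 and 65.5 in IgG libraries.

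A larger set, chosen after its values were seen, was open in all 9 libraries other than IgG and in no IgG library. It held 60 lincRNA promoters beside 1.08% of all gene start sites, and 21 at equal list lengths (0.457% of members and 0.381% of all start sites), 20 of them in both. Gm19590, between the receptor tyrosine kinase genes Kdr (143 kb) and Kit (261 kb), stood at 88.8 to 98.4 in the 9 libraries. Gm5533, 10.1 kb from the lamin B receptor gene Lbr, stood at 78.9 to 99.1. The pair 2310001H17Rik and Gm47861, which overlap at their 5′ ends on opposite strands beside the activation antigen gene Cd69, shared a peak at 53.5 to 91.0. 1700029M03Rik, 25.4 kb from the chemokine gene Xcl1, stood at 61.0 to 86.7, and Gm14009, 63.9 kb from Bcl2l11, which encodes the death protein BIM, at 60.2 to 82.9.

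**Figure D3:**
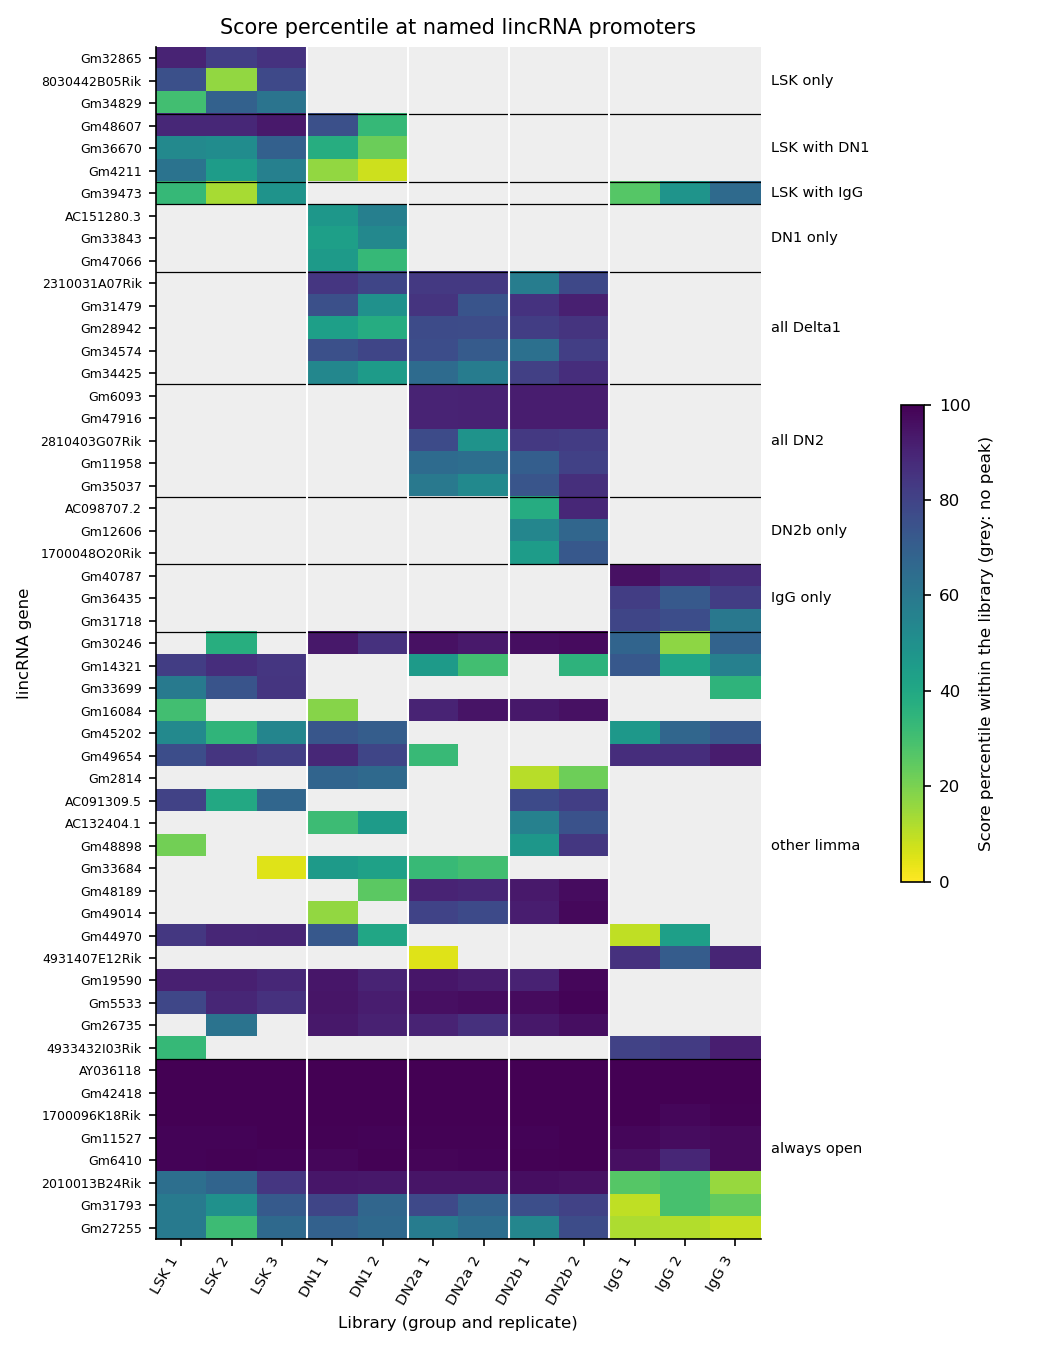
Score percentile (colour, 0 to 100, grey for no peak) at lincRNA promoters (rows) in the 12 libraries (columns, grouped by white lines). Rows are ordered by set: open in 1 group only, in the sets of groups, other promoters named from the limma comparisons, and promoters open in all 12 libraries. Gm32865 is coloured in the 3 LSK columns alone, Gm6093 in the 4 DN2 columns alone and Gm40787 in the 3 IgG columns alone.

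Stages were then compared with limma on the score percentile over all 17889 gene start sites with a peak in at least 2 libraries, 850 of them lincRNA promoters, with Benjamini-Hochberg adjustment at 0.05 within each comparison. A second fit used equal list lengths, with 14524 sites and 545 lincRNA promoters. Differences are in percentile points. At equal list lengths a point belongs to the re-ranked list, so sizes of differences cannot be compared between the 2 fits. A promoter with under 2 open libraries outside its higher group passed the filter through that group and had to differ, so the counts of calls are descriptions. Such promoters and those of the sets above, which were chosen on the same values, are given without a p. Where a group had no peak in any library its own spread was 0, so the SE rests on the spread of the other groups and on the moderation across sites. Each comparison shares libraries with at least 2 of the others. The direction of the calls depended on the list lengths in several comparisons, and all counts are given for both fits.

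Between LSK and DN1 cells, the first stage after contact with the ligand, 81 lincRNA promoters were higher in DN1 and 33 lower (background 4.11% and 1.64% of all sites tested). LSK cells were fresh and DN1 cells cultured, so ligand, culture and its cytokines cannot be told apart here. At equal list lengths 24 were higher and 39 lower (background 2.6% and 5.21%), and 14 and 15 promoters were called the same way in both. Calls covered 13.4% of the lincRNA promoters tested and 5.75% of all sites tested in the first fit, and 11.6% and 7.81% in the second. Of the sets, 2310031A07Rik and Gm34574 were higher in DN1 by 81.7 and 77.5 points, and Gm32865 differed by -85.6 points. At equal list lengths these differences were 54.87, 42.75 and -75.05 points, and within 2.5 kb that of 2310031A07Rik was 7.22. Gm30246 stood at 0, 37.2 and 0 in LSK and 93.5 and 85.8 in DN1 libraries, and rose by 77.3 points (SE 16.3, adjusted p = 0.020). Gm14321, at 81.7, 86.8 and 84.1 in LSK and 0 in both DN1 libraries, fell by 84.2 points (SE 12.5, adjusted p = 0.0028), and Gm33699, at 58.6, 74.2 and 84.7 in LSK libraries, differed by -72.5. Both tested promoters were called the same way at equal lengths. Gm30246 was not called with a window of 500 bp or with only these groups in the fit (adjusted p = 1.0 and 0.10), nor Gm14321 with 500 bp or 2.5 kb (adjusted p = 0.11 and 0.36). The number called was 63 without DN1 replicate 1 and 72 without DN1 replicate 2.

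From DN1 to DN2a, 12 lincRNA promoters were higher and 36 lower (background 0.481% and 1.6%), and 13 and 12 at equal list lengths (background 0.957% and 0.84%), with 8 and 3 the same in both. Gm6093 and Gm47916 of the DN2 set, which share a peak, were each higher by 90.2 points. Gm16084 rose by 83.1 points (SE 11.3, adjusted p = 0.0039), from 18.3 and 0 in the DN1 libraries to 89.9 and 94.5 in the DN2a libraries. Its nearest coding gene is 3110018I06Rik, 328 kb away, and it lies 0.843 Mb from Bcl11b, the zinc finger factor of T lineage commitment. Gm49654, 61.1 kb from the kinase gene Map3k9, fell by 67.7 points (SE 10.9, adjusted p = 0.010), from 88.7 and 79.3 to 32.6 and 0. Gm45202 (73.4 and 70.6 in DN1, 0 in DN2a) and Gm2814 (67.7 and 65.9 in DN1, 0 in DN2a) fell by 72.0 points (SE 10.8, adjusted p = 0.0066) and 66.8 points (SE 5.17, adjusted p = 0.00022), but were not called at equal list lengths, and Gm2814 had no peak within 500 bp. The number called was 23 without DN1 replicate 1 and 28 without DN2a replicate 2. With only the groups compared in the fit, limma called 0, and 136 lincRNA promoters had an unadjusted p under 0.05.

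From DN2a to DN2b, 26 were higher and 1 lower (background 1.55% and 0.0391%), and 11 and 5 at equal list lengths (background 0.806% and 0.282%), with 4 and 0 the same in both. AC091309.5, at 0 in DN2a and 77.5 and 81.5 in DN2b libraries, rose by 79.5 points (SE 11.2, adjusted p = 0.0059), and also stood at 80.3, 39.8 and 67.0 in LSK libraries. AC132404.1, 5.89 kb from the calcium channel gene Itpr3, rose by 65.5 points (SE 7.15, adjusted p = 0.0013) and Gm48898 was higher by 65.4. Gm33684 fell by 31.4 points (SE 4.62, adjusted p = 0.0074), from 32.6 and 30.2 to 0. None of these 4 was called at equal list lengths. Gm48898 was open in 3 libraries within 1 kb and in 11 within 2.5 kb, and Gm33684 in 5 within 1 kb and in 0 within 500 bp. The number called was 6 without DN2b replicate 2, 65 without DN2b replicate 1 and 12 without DN2a replicate 2. With only these groups in the fit limma called 0, and 55 had an unadjusted p under 0.05.

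Over the whole course from LSK to DN2b, 104 lincRNA promoters were higher and 62 lower (background 7.28% and 2.82%), and 65 and 80 at equal list lengths (background 5.59% and 7.89%). Ligand, IL-7, culture and its other cytokines cannot be told apart in this comparison with fresh cells. The same direction was called in both for 53 and 34. Calls covered 19.5% and 26.6% of the lincRNA promoters tested in the 2 fits, and 10.1% and 13.5% of all sites tested. Gm48189, 60.4 kb from the progenitor transcription factor gene Myb, stood at 0 in LSK libraries, 0 and 25.1 in DN1, 89.9 and 89.1 in DN2a and 93.1 and 96.7 in DN2b libraries. It rose by 94.9 points (SE 8.02, adjusted p = 5.3e-05). Gm49014, 553 kb from its nearest coding gene Gsdmc and 1.27 Mb from the growth regulator gene Myc, stood at 0 in LSK, 16.1 and 0 in DN1, 80.0 and 77.7 in DN2a and 91.9 and 97.7 in DN2b libraries, and rose by 94.8 points (SE 6.84, adjusted p = 3.2e-05). Both had no peak in the IgG libraries. Of the sets, Gm6093 was higher in DN2b by 91.98 points, and Gm48607 and Gm32865 differed by -90.3 and -85.6. Gm44970 went from 83.6, 89.3 and 89.7 in LSK through 72.5 and 40.7 in DN1 to 0 in all DN2 libraries, a fall of 87.5 points over the course (adjusted p = 0.0016). With only these groups in the fit 82 were called.

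Culture without the ligand gave the largest numbers. LSK cells were fresh and IgG cells cultured and not gated by stage, so culture, cytokines and cell mixture cannot be told apart. Against LSK cells, 48 lincRNA promoters were higher in IgG cells and 265 lower (background 2.74% and 36.9%), and 71 and 132 at equal list lengths (background 6.36% and 18.4%), with 41 and 132 the same in both. Calls covered 36.8% of lincRNA promoters tested and 39.7% of all sites tested as deposited, and 37.2% and 24.8% at equal list lengths. The median difference was -9.55 points over the lincRNA promoters tested and -8.47 over all sites, and -4.97 and -2.30 at equal list lengths. Of the IgG-only set, Gm40787 and Gm36435 were higher in IgG cells by 91.3 and 78.5 points. 4931407E12Rik, at 85.6, 70.8 and 89.7 in IgG and at 4.71 in a single other library, DN2a replicate 1, was higher by 82.0 points than in LSK, with no peak within 500 bp in any library. Among the other sets, Gm19590, Gm48607 and Gm32865 differed by -90.4, -90.3 and -85.6 points.

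The Delta1-cultured stages together were compared with IgG cells to ask which lincRNA promoters differ with the ligand. The Delta1-cultured cells were sorted by stage and those of DN2 also had IL-7, so ligand, IL-7 and sorting cannot be told apart here. Here 382 were higher with Delta1 and 69 lower (background 53.2% and 3.61%), and 126 and 110 at equal list lengths (background 22.0% and 13.7%), with 126 and 66 the same in both. Calls covered 53.1% of lincRNA promoters and 56.8% of all sites tested as deposited, and 43.3% and 35.8% at equal list lengths. The median difference was 15.9 points over lincRNA promoters and 12.1 over all sites, and 1.64 and 1.20 at equal list lengths. Of the sets, Gm5533 and Gm19590 were higher with Delta1 by 95.9 and 93.1 points, and Gm40787 differed by -91.3. Gm26735, 10.7 kb from the progenitor factor gene Sox4, stood at 86.0 to 96.4 in the Delta1-cultured libraries, 0, 62.1 and 0 in LSK and 0 in IgG libraries, a difference of 91.7 points. 4933432I03Rik, 13.2 kb from the macrophage gene Acod1, stood at 80.5, 82.5 and 91.7 in IgG, 33.1 in LSK replicate 1 and 0 elsewhere, a difference of -84.9 points.

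**Figure D4:**
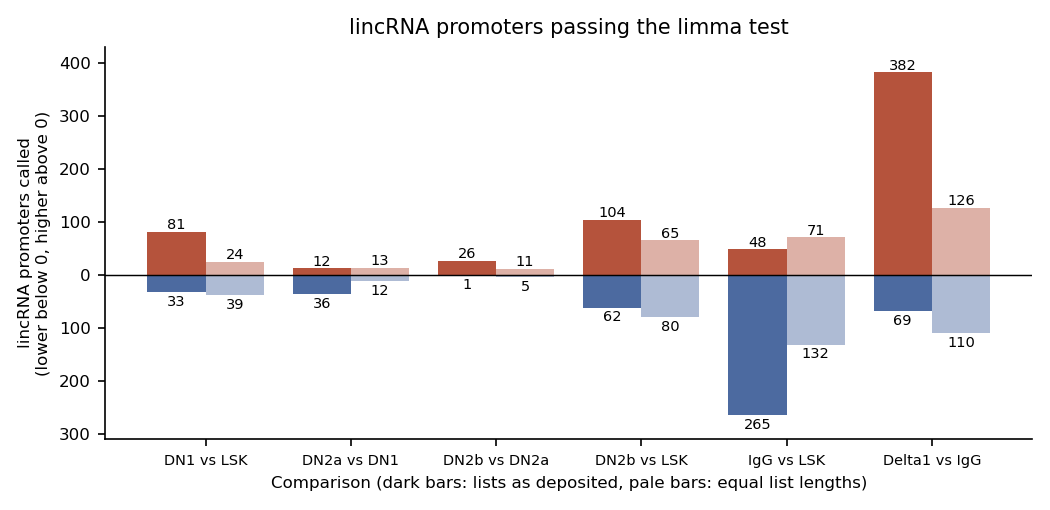
Number of lincRNA promoters called by limma as higher (red, above 0) or lower (blue, below 0) in the first group of each comparison. Dark bars are the lists as deposited and pale bars the lists at equal lengths. The split of DN1 against LSK turns from 81 higher and 33 lower to 24 and 39, and that of Delta1 against IgG moves from 382 and 69 to 126 and 110.

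Known lincRNA genes were grouped by role. Of 6 member genes that are widely expressed or act in the nucleus, 5 were open somewhere and 3 in all 12 libraries, where over all members 23.3% were open somewhere and 3.03% in all 12. Malat1, the abundant RNA of nuclear speckles, stood at 83.5 to 97.3 over the 12 libraries, and its peak lay 979 bp upstream of the annotated start. Neat1, the scaffold of paraspeckles, stood at 87.8 to 99.2. Both were slightly lower in Delta1-cultured than in IgG cells, Malat1 by -6.27 points (SE 2.31, adjusted p = 0.040) and Neat1 by -5.14 (SE 1.61, adjusted p = 0.020). At equal list lengths the differences were -17.8 and -12.8 re-ranked points (adjusted p = 0.0011 and 0.0029). With only these groups in the fit neither was called (adjusted p = 0.093 and 0.060). Dubr stood at 83.4 to 94.0 outside the IgG libraries and at 60.1, 52.8 and 50.9 in them, and was higher with Delta1 by 35.6 points (SE 3.15, adjusted p = 2.1e-05), and by 27.2 at equal list lengths (adjusted p = 0.0016). Lncpint was open in 6 libraries, and Pvt1, the neighbour of Myc, in DN2b replicate 2 alone, at 27.2. Miat had no peak in any library.

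The 3 snoRNA host genes among the members were open in 11 or 12 libraries. Snhg6 stood at 91.0 to 97.7 outside the IgG libraries and at 70.7, 79.1 and 82.5 in them, and was higher with Delta1 by 18.6 points (SE 2.33, adjusted p = 0.00015), beside a median of 12.1 over all sites, and by 15.8 at equal list lengths (adjusted p = 0.0018), beside a median of 1.20. Snhg12 was open in all 12 libraries and Snhg20 in all but IgG replicate 2, though in none within 500 bp. Of the 3 X inactivation genes, Jpx, an activator of Xist, stood at 86.6 to 93.3 outside the IgG libraries and at 55.6, 72.0 and 73.6 in them. Xist itself was open in 10 libraries, at 46.2, 0 and 52.7 in LSK, 64.4 to 84.2 in the Delta1-cultured libraries and 26.6, 0 and 15.6 in IgG libraries, and was higher with Delta1 than with IgG by 58.6 points (SE 12.04, adjusted p = 0.0025). The difference was 32.0 at equal list lengths (adjusted p = 0.0021), and Xist was not called within 2.5 kb (adjusted p = 0.48). Ftx was open in 6 libraries, in 0 at equal list lengths and in 12 within 2.5 kb. The 3 imprinted genes H19, Meg3 and Mirg had no peak in any library.

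Among 6 miRNA host genes, 4 were open in at least 1 library and none in all 12. Mir17hg, the host of the growth-promoting miR-17-92 cluster, was open in 11 libraries, at 67.7, 73.2 and 70.5 in LSK, 47.0 to 86.7 in Delta1-cultured libraries and 65.3, 0 and 44.7 in IgG libraries. Mir155hg, the host of the immune miR-155, was open in all libraries but those of IgG, at 50.8, 53.5 and 61.3 in LSK and 30.2 to 81.0 in the Delta1-cultured libraries. It belongs to the set open in all libraries other than IgG, and its IgG values lay 52.5 points below the Delta1 mean and differed from LSK by -55.2. At equal list lengths it was open in 6 libraries. Its IgG values then lay 12.1 points below the Delta1 mean and differed from LSK by -23.1. Mir124a-1hg and Mir9-3hg, hosts of neuronal miRNAs, had 1 peak each, at 6.79 in DN1 replicate 1 and 22.2 in DN2b replicate 2, and Mir670hg and Mir124-2hg had none.

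Of 7 blood and immune lincRNA genes 6 were open somewhere and 3 in all 12 libraries. Ptgs2os2, upstream of the prostaglandin synthase gene Ptgs2, stood at 87.3 to 91.8 in LSK, 92.9 and 94.3 in DN1, 75.0 and 81.3 in DN2a, 63.1 and 78.0 in DN2b and 89.1 to 95.6 in IgG libraries. It fell by 18.9 points from LSK to DN2b (SE 4.19, adjusted p = 0.016), and by 53.4 re-ranked points at equal list lengths (adjusted p = 4.2e-05). It was not called with only these groups in the fit (adjusted p = 0.15). Lockd, beside the cell cycle inhibitor gene Cdkn1b, stood at 80.5 to 94.8, and Mirt1 at 86.8 to 99.3. Trp53cor1, the p53-induced RNA beside Cdkn1a, was open in all IgG libraries, at 69.8, 83.3 and 73.6, and in 4 of the other 9, and passed no comparison. Gm14005, the Morrbid RNA that lowers expression of the neighbouring Bcl2l11 in myeloid cells, was open in both DN2b libraries, at 12.9 and 41.4, and in none at equal list lengths. Its start lies 377 kb from that of Bcl2l11. Ifngas1, beside Ifng, was open in 2 libraries at 14.3 and 28.9, and Bloodlinc in none. Of 4 developmental genes, Lncenc1 was open in LSK replicates 2 and 3 at 39.8 and 54.6 and Bvht in IgG replicate 1 at 2.19, with all 12 open within 2.5 kb, and Hotair and Rmst had no peak.

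Promoters were also sorted by their nearest protein-coding gene. Of 29 lincRNA promoters nearest to a gene of a T lineage list, 12 were open in at least 1 library, where 23.3% of all members were. They were 1 to 4 in an LSK library, 3 to 4 in DN1, 3 to 4 in DN2a, 6 and 7 in DN2b, and 1 in each IgG library. The DN2b counts are 20.7% and 24.1% of the 29, beside 10.5% and 16.1% of all members in those libraries. The other shares were 3.45% to 13.8% in LSK, 13.8% and 10.3% in both DN1 and DN2a, and 3.45% in each IgG library. Over all members they were 11.1% to 12.9% in LSK, 15.1% and 12.3% in DN1, 11.6% and 9.92% in DN2a, and 6.49% to 7.07% in IgG. In a list of 29, 1 promoter makes 3.45%. The DN1 and IgG shares lay below those over all members by about that step or less. With equal lengths the numbers open were 0 to 2 in LSK, 1 to 2 in DN1, 1 to 2 in DN2a, 3 to 4 in DN2b, and 1 in IgG. The DN2b counts are then 13.8% and 10.3% of the 29, beside 6.38% and 6.79% of all members in those libraries. In the libraries of the other groups 6.35% to 8.29% of all members were open. The difference rests on few promoters and was not tested. 2010110G14Rik, 173 kb from Lef1, which encodes a partner of TCF1 in T cell development, stood at 8.33 and 0 in DN1, 76.2 and 84.7 in DN2a and 87.0 and 96.4 in DN2b libraries, and at 0 in LSK and IgG libraries. It rose by 76.3 points from DN1 to DN2a (SE 7.17, adjusted p = 0.00048), and by 61.9 at equal list lengths (adjusted p = 0.0025), but was not called with only these groups in the fit (adjusted p = 0.21). Gm26551, 13.5 kb from the TCF1 gene Tcf7, had a peak in DN2a replicate 2 at 52.5 and DN2b replicate 1 at 61.8 alone, with none within 500 bp and 5 libraries within 2.5 kb. AC151267.2, whose nearest gene is the chromatin organizer gene Satb1, stood at 10.8 to 62.0 in all 6 Delta1-cultured libraries, 0, 4.57 and 24.1 in LSK and 0 in IgG libraries, and had no peak in any library at equal list lengths. Gm47680 and Gm27162, nearest to the ETS factor gene Ets1, had peaks in DN2b cells alone, at 32.2 in 1 library and at 8.85 and 42.8 in both, and Gm41333, nearest to Myc, had 1 peak at 3.62 in DN2a replicate 1.

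Of 4 lincRNA promoters nearest to Hes1, a direct Notch target gene that encodes a repressor, 3 were open in at least 1 library and none in an IgG library, where 6.49% to 7.07% of all members were open. Gm1968 had 1 peak, at 15.97 in LSK replicate 3, and the other two open promoters had peaks in most Delta1-cultured libraries. 9030404E10Rik, 24.9 kb from Hes1, stood at 78.5 and 64.6 in DN1, 51.3 and 0 in DN2a and 60.5 and 73.0 in DN2b libraries, at 0, 39.8 and 0 in LSK and at 0 in IgG libraries. The difference of Delta1 from IgG cells was 54.6 points, and 16.2 at equal list lengths. 4632428C04Rik, 55.7 kb from Hes1, stood at 48.9 and 55.1 in DN1, 0 in both DN2a and 47.0 and 73.0 in DN2b libraries, with 0, 22.4 and 48.7 in LSK and 0 in IgG libraries, and was higher by 37.3 points (SE 9.68, adjusted p = 0.0084), but by 2.59 at equal list lengths (adjusted p = 0.54). The DN2a libraries were thus the lowest of the Delta1-cultured libraries at both start sites. Neither passed a comparison between consecutive stages.

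Of 29 promoters nearest to a stem and progenitor gene 5 were open somewhere, beside 23.3% of all members. Zfp469, nearest to Zfpm1, was open in 3 libraries, at 34.7 in LSK replicate 3, 14.3 in DN1 replicate 2 and 60.2 in DN2b replicate 2. The others include a pair on either side of the change of stage at Gfi1, which encodes a repressor used in stem cells and lymphocytes. Gm26692, 38.0 kb from Gfi1, stood at 70.1, 68.8 and 82.9 in LSK, 24.9 and 0 in DN1, 0 in DN2a, 0 and 45.6 in DN2b and 0 in IgG libraries, and fell by 61.5 points from LSK to DN1 (SE 12.2, adjusted p = 0.015), without a call when only these groups were in the fit (adjusted p = 0.095). 4930428O21Rik, 22.6 kb from Gfi1, stood at 0 in LSK, 0 and 38.3 in DN1, 60.9 and 54.4 in DN2a, 60.5 and 80.1 in DN2b and 0 in IgG libraries, and rose by 70.3 points from LSK to DN2b (SE 10.3, adjusted p = 0.0014), and by 29.4 at equal list lengths (adjusted p = 0.00063). Gm12066, 123 kb from the B and progenitor cell factor gene Bcl11a, stood at 76.4, 81.4 and 70.5 in LSK, 48.9 and 70.6 in DN1 and 0 in all DN2 libraries, with 9.68, 0 and 48.9 in IgG libraries. It fell by 76.1 points from LSK to DN2b (SE 13.2, adjusted p = 0.0041), and had no peak within 500 bp in any library. Gm32250, 56.5 kb from the progenitor antigen gene Cd34, was open in all 12 libraries, at 10.5 to 44.3 in LSK, 59.4 to 81.5 in Delta1-cultured and 48.7 to 64.2 in IgG libraries.

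Of 27 promoters nearest to a myeloid gene 14 were open in at least 1 library, where 23.3% of all members were, and 10 of them belong to a cluster of 12 start sites beside Ly86, which encodes the MD-1 partner of a Toll-like receptor homologue. In that cluster 7 were open in each LSK library, 10 and 8 in DN1, 8 in each DN2 library and 5 to 6 in IgG libraries, and 4 were open in all 12. Gm47732 and Gm30918, 137 kb and 196 kb from Ly86, were the highest, at 93.9 to 99.4 and 85.3 to 99.3 outside the IgG libraries and 66.6 to 90.0 and 70.7 to 72.6 in them. Gm29590 stood at 67.7 to 86.3 outside and 0 in the IgG libraries, as a member of the set open in all libraries but those of IgG, with a difference of -81.3 points from LSK to IgG. Gm47730 went the other way, at 0 in LSK, 66.5 to 84.6 in the Delta1-cultured and 42.3, 52.8 and 83.9 in the IgG libraries, and rose by 72.2 points from LSK to DN1 (SE 12.04, adjusted p = 0.0059) and by 59.7 from LSK to IgG (SE 10.8, adjusted p = 0.0021). At equal list lengths the former was 32.0 points and not called (adjusted p = 0.12). Gm4035 and Gm29458 were open in all 12 libraries, Gm29459 in 10, Gm47711 in 8, Gm47709 in 2 and Gm47734 in 1. Within 500 bp Gm4035, Gm29459 and Gm47711 had no peak and Gm29590 had one in 2 libraries. Neighbouring start sites of the cluster thus differed in the libraries where they were open. Outside the cluster, 2610028E06Rik, nearest to Csf3r, was open in 3 libraries at 10.04 or below, and Gm47705, Gm47713 and Gm36723, nearest to Id2 (Gm47713 and Gm36723 share a peak), in 1 or 2 libraries at 29.5 to 35.3.

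Among the 139 promoters open in all 12 libraries, AY036118 and Gm42418 stood at the very top of every list, at 99.99 or above. They overlap on opposite strands beside a ribosomal RNA repeat and share a peak, so their values count once and can hold reads from other copies. 1700096K18Rik stood at 98.1 or above, and Gm11527 at 96.5 or above. Gm6410 had a median of 99.0. The widest range of group means was that of 2010013B24Rik, at 63.5, 67.6 and 84.1 in LSK, 93.5 to 96.2 in the Delta1-cultured and 26.6, 29.3 and 15.6 in IgG libraries. It fell by 47.9 points from LSK to IgG (SE 6.50, adjusted p = 0.00046). Gm31793 (49.2 to 71.6 in LSK, 67.2 to 80.1 with Delta1, 9.68 to 29.3 in IgG) and Gm27255 (31.6 to 65.6, 54.3 to 76.8 and 8.78 to 12.2) showed the same order in the lists as deposited. At equal list lengths limma gave Gm31793 -17.3 points from LSK to IgG (adjusted p = 0.24) and 28.6 for Delta1 against IgG (adjusted p = 0.027). For Gm27255 these were -18.4 (adjusted p = 0.21) and 16.4 (adjusted p = 0.17), so its LSK mean then lay above that of Delta1. Within 500 bp of its start Gm27255 had no peak in any library.

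Peaks lay less tightly on lincRNA starts than on protein-coding starts. The median distance from the start site to the midpoint of the highest-scoring peak was 177 to 303 bp over the libraries, against 69 to 83 bp for protein-coding promoters, and 46.0% to 56.9% of the peaks lay within 250 bp, against 75.1% to 80.3%. IgG libraries had the shortest median distances, at 177, 194.5 and 206 bp. Their lists were also the shortest, and the distances are given for the lists as deposited only. Over all libraries the highest-scoring peak lay outside the lincRNA gene record, on either side, for 606 promoters. It lay in an exon of the lincRNA gene for 207 and in an intron for 258, and inside a protein-coding gene record for 49.

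**Figure D5:**
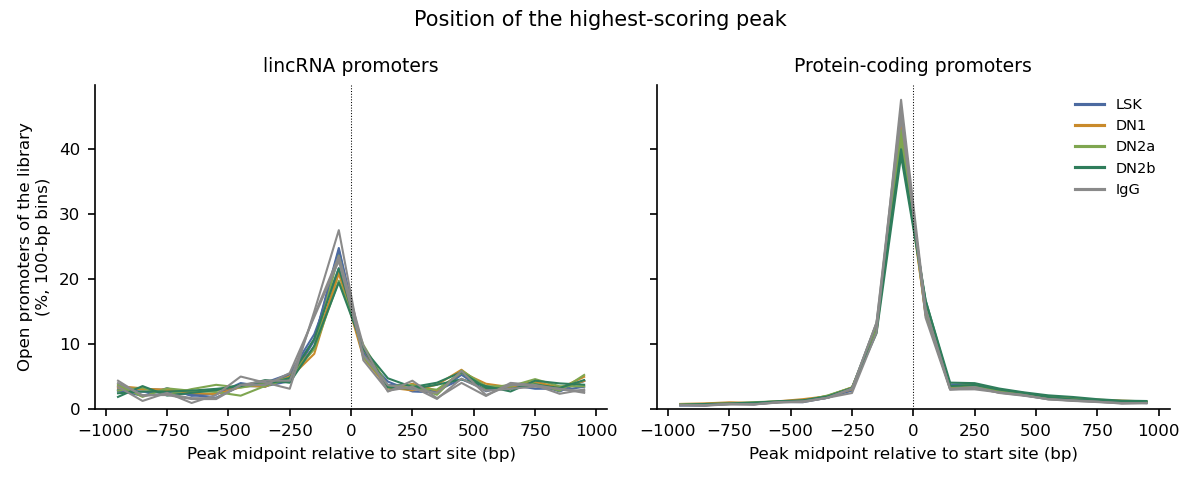
Share of a library's open promoters (%, 100-bp bins, vertical axis) by the position of the midpoint of the highest-scoring peak relative to the start site (bp, horizontal axis, negative upstream), 1 line per library coloured by group. Both classes peak just upstream of the start, and the lincRNA curves (left) are lower and broader, with 46.0% to 56.9% of peaks within 250 bp against 75.1% to 80.3% for protein-coding promoters (right).

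Sequence composition differed with the number of libraries in which a promoter was open. The median ratio of observed to expected CpG in 2 kb around the start was 0.194 for lincRNA promoters open in no library, 0.244 for those open in 1 to 11 and 0.360 for those open in all 12. For protein-coding promoters the medians were 0.193, 0.499 and 0.653, so lincRNA promoters open in all 12 libraries had fewer CpGs than the protein-coding ones. The repeat-masked share of the 300 bp from 250 before to 50 after the start averaged 25.9%, 17.3% and 12.5% in lincRNA promoters, and 15.3%, 11.01% and 7.42% in protein-coding promoters. The ETS motif was found in that window in 6.64%, 9.55% and 28.1% of lincRNA promoters, in 37.4% of protein-coding promoters open in all 12 libraries and in 12.3% of all start sites. This motif itself holds a CpG, and its relation to the CpG ratio was not tested. The other shares over all 4595 lincRNA promoters and over all start sites were 27.0% and 24.9% for the RBPJ core, 21.8% and 18.5% for RUNX, 16.3% and 13.8% for GATA, 19.4% and 17.7% for TCF1 and LEF1, 4.18% and 7.20% for CTCF, and 17.3% and 17.4% for the TATA box.

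Inside the peaks themselves the motifs were distributed differently. The RUNX motif was in the highest-scoring peak of 229 of 1071 open lincRNA promoters (21.4%), against 8.39% of protein-coding promoters and 11.5% of all open start sites. The ETS motif was in 8.40%, 23.3% and 19.6%, the GATA motif in 7.75%, 2.51% and 3.85%, the TCF1 and LEF1 motif in 11.7%, 5.84% and 6.98%, and the RBPJ core in 12.3%, 11.2% and 11.2%. In the sets, the counts of peaks with an RBPJ, RUNX, ETS, GATA and TCF1 and LEF1 match, in this order, were 1, 1, 4, 3 and 1 for the 16 LSK-only promoters and 3, 4, 0, 1 and 3 for the 18 IgG-only promoters. They were 2, 1, 0, 0 and 1 for the 9 DN1-only and 1, 3, 1, 3 and 3 for the 15 DN2b-only promoters. For the 15 promoters open in the Delta1-cultured libraries alone they were 3, 11, 1, 3 and 2, for the 7 of the DN2 set 0, 1, 1, 1 and 3, and for the 6 shared by LSK and DN1 cells 0, 0, 0, 1 and 0. The RUNX matches in the Delta1 set, 2310031A07Rik among them, were the highest of these counts. These are descriptions of small sets, promoters are not replicates, and no match says only that the letters were not in the peak.

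The start sites nearest to the limit of 5 kb from a coding start were as follows. Just outside it, AW121686 (5002 bp) was open in 2 libraries and Gm37552 (5027 bp) in 7. Just inside it, and so not members, Gm15729 (4987 bp) was open in 6 libraries and B230311B06Rik (4969 bp) in 0.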

How the data were processed

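DNase-seq peak lists of 12 libraries were analysed in 5 groups taken from the labels. Per the methods, the authors removed adapters, mapped read pairs to mm10, and used hotspot2 for peaks with a false discovery rate of 0.05. The files hold 1 list per library. The submitters' processing notes name BWA 0.7.12 and SAMtools 1.2. Each deposited list gives 150-bp peaks with a whole-number score from 1 to 150, whose meaning is not given in the sources used here. Scores were turned into percentiles within a library. Lists hold no read totals, so the depth behind them is unknown.

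Start sites, types and nearest genes came from GENCODE M21 (nearest genes by gene record start, the 5 kb rule by transcript starts), and sequences from GRCm38.p6. No deposited peak ran past a chromosome end of that assembly. The members and all gene lists were chosen with earlier results of these data known. Named promoters were the leading members of each set and limma comparison (up to 3 or 5), of those open in all 12 libraries, every open member of the gene lists, and the 2 start sites nearest to the 5 kb limit on each side; others are said to have been chosen after their values were seen, except set members named for their neighbour gene. Sites with a peak in at least 2 libraries were tested with limma 3.58.1 (R 4.3.3, moderated with a trend, all libraries in 1 fit, two-sided, Benjamini-Hochberg within each of 6 comparisons). On simulated shifts in 200 of 17889 sites in the DN1 to LSK comparison, it recovered 27% at 30 points and 68% at 60 points. Alternatives were equal list lengths (32952 peaks), the upper 50% by score, windows of 500 bp and 2.5 kb, other start sites and distances, other filters and fits, and each library left out. Replicates came from independent isolates per the methods, and p-values measure the spread between these libraries.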

Additional observations from a re-analysis of the deposited data

How the results depend on the processing

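No paired analysis was possible because the labels give no replicate numbers, and those used here are names in accession order. The share of lincRNA promoters open, for LSK, DN1, DN2a, DN2b and IgG, was 7.87%, 6.97%, 6.54%, 6.58% and 6.49% at equal list lengths, 6.86%, 8.20%, 6.42%, 7.90% and 3.62% with the upper 50% of peaks by score, and 17.7%, 21.2%, 16.8%, 20.4% and 10.5% with a window of 2.5 kb. With a window of 500 bp it was 8.84%, 9.85%, 7.76% and 5.26% in LSK, DN1, DN2a and IgG. In IgG it was 7.34% over every lincRNA transcript start and 6.51% for starts more than 10 kb from coding starts. Leaving out a library gave 11.3% to 12.1% in LSK, 12.3% to 15.1% in DN1, 9.92% to 11.6% in DN2a, 10.5% to 16.1% in DN2b and 6.72% to 7.02% in IgG. The median percentile at open promoters was 50.5, 51.6, 55.0, 53.7 and 50.9 at equal list lengths. With the upper 50% of peaks it was 49.2, 53.1, 55.4 and 44.5 in LSK, DN1, DN2a and IgG, and with 2.5 kb 54.3, 57.4, 56.3 and 50.6. It was 55.8 in IgG with 500 bp, 60.5 in DN1 and 53.3 in IgG with distances from coding gene records only, and 59.0 and 51.9 beyond 10 kb. Without a library it was 55.2 to 56.8 in LSK, 59.4 to 60.2 in DN1, 57.9 to 59.5 in DN2a, 57.5 to 62.2 in DN2b and 52.6 to 52.8 in IgG.

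Promoters open in a single group numbered, at equal list lengths, 27 for LSK, 4 for DN1, 7 for DN2b and 31 for IgG. Requiring at least 2 replicates of the group gave 30 for LSK and 29 for IgG. A window of 500 bp gave 5 for DN1 and 1 for DN2a, a window of 2.5 kb 31 for IgG, and the upper 50% of peaks 8 for DN2b. For the Delta1 set the count was 7 at equal lengths and 27 with 2.5 kb. For the DN2 set it was 13 at equal lengths, 11 with the upper 50% and 4 with 500 bp. LSK with IgG gave 3 at equal lengths, 0 with the upper 50% and 3 with 2.5 kb, and LSK with DN1 gave 2 with 500 bp. Without a library the counts ran from 16 to 27 (LSK), 9 to 55 (DN1), 0 to 11 (DN2a), 15 to 102 (DN2b), 18 to 25 (IgG), 15 to 26 (Delta1), 7 to 11 (DN2), 1 to 4 (LSK with IgG) and 6 to 17 (LSK with DN1). A set asks more of groups with more libraries, so leaving a library out enlarges it by construction.

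The limma calls at equal list lengths were 63 (DN1 against LSK), 25 (DN2a against DN1), 16 (DN2b against DN2a), 203 (IgG against LSK) and 236 (Delta1 against IgG). With the upper 50% of peaks they were 63, 31, 12, 107 (DN2b against LSK), 158 and 257. With 2.5 kb they were 173 for DN1 against LSK and 78 for DN2a against DN1, and with 500 bp 29 for the latter. Testing open or not in place of the percentile gave 46 (DN1 against LSK), 29 (DN2a against DN1), 69 (DN2b against LSK), 147 (IgG against LSK) and 214 (Delta1 against IgG). A filter of 3 libraries gave 12 for DN2b against DN2a. With only the groups compared, 0 were called for DN2a against DN1 and for DN2b against DN2a, with 136 and 55 promoters at an unadjusted p under 0.05 in limma, and 82 for DN2b against LSK. Without a library the calls were 63 to 131 (DN1 against LSK), 23 to 65 (DN2a against DN1), 6 to 65 (DN2b against DN2a), 119 to 180 (DN2b against LSK), 248 to 309 (IgG against LSK) and 366 to 530 (Delta1 against IgG). Where a lone library remained in a group, it was assumed to vary like the others. Apart from list length and the number of libraries, the cause of these shifts was not tested. Of 110 named promoters 47 were open in as many libraries at equal list lengths and 23 in none. With 2.5 kb 26 were open in more libraries, and with 500 bp 40 were open in fewer and 29 in none. The unknown depth limits every statement on a promoter without a peak.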
